A study of Mus musculus with 6 samples.

Results

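The mitochondrial ribosomal protein genes are the nuclear genes for the proteins of the ribosome inside mitochondria. They were taken as every protein-coding gene of the deposited table whose symbol begins with Mrpl or Mrps followed by a number, which gave 78 of 20665 genes. Of these, 51 encode proteins of the large ribosomal subunit, 26 encode proteins of the small subunit, and Mrps36 encodes a protein that carries the family's name but belongs to the alpha-ketoglutarate dehydrogenase complex. RNA had been sequenced from primary fibroblasts of the gingiva, or gum, where these cells make the connective tissue, taken from wild-type (WT) C57BL/6 mice. One group of 3 libraries came from cells irradiated on a 35-mm dish at 3.9 J/cm2 by an Er:YAG laser held 25 cm away, an infrared laser used on teeth and gums. The other group of 3 libraries came from cells with no treatment, and both groups carry the label 3 h. The study asked for early effects of the laser on these cells, and each group has libraries numbered 1, 2 and 3. The labels do not say what a shared number means. Same-numbered libraries were taken as pairs, for the reason given with the processing.

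The mitochondrial ribosome translates the few messenger RNAs that the mitochondrial genome encodes, all of them for subunits of the respiratory chain and the ATP synthase. Its RNA comes from the mitochondrial genome and its proteins from the nucleus, so that both genomes have to supply one particle. Many of its proteins descend from bacterial ribosomal proteins, and others were added in the mitochondrial lineage. Fibroblasts depend on this ribosome for oxidative phosphorylation, and collagen-making cells use much energy for synthesis and secretion.

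The libraries held 45178137 to 59904715 reads assigned to genes, and mitochondrially encoded RNA took 1.85% to 2.01% of the normalized counts. The labels leave out whether replicate libraries are separate cultures or animals. A p-value here sets a difference only against the spread of these libraries, which may be technical. The 9 fibroblast markers listed for this tissue, among them the collagen genes Col1a1 and Col1a2, were all present and together took 3.16% to 4.43% of the normalized counts per library. A limma test of the replicate number, described below, called 6 of the 9 (13.4% of all genes tested). Lum, for one, had 59.2 and 50.3 normalized counts in the libraries numbered 1 and 782 to 1119 in the others. Summed epithelial, endothelial and leukocyte markers each took at most 0.000963% of the counts in a library, and Krt5, Krt14, Adgre1 and Cd3e had no row in the table. Non-irradiated replicate 2 stood apart from the other 5 libraries for the ribosomal protein genes, as described below, and the medians over groups of ribosomal protein genes and many single values are also given without its pair. In bulk RNA, fewer cells of a type and less RNA per cell cannot be told apart.

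The 78 genes lie on 17 chromosomes and so share no single locus. For 69 of them RefSeq (build GRCm38.p6) gave a promoter window, which ran from 250 bases before the start of the gene to 50 bases after it, a length of 300 bases. The windows were searched on both strands for the motif of NRF1 (GCGC, then any base, then TGCGC), a regulator of nuclear genes for mitochondrial proteins, for the core motif of ETS factors (CGGAAG), and for the motif of YY1 (AAGATGGCG). No window had overlapping matches of these motifs. The stretches of 120 bases before the start of 4 genes are shown because those genes recur in the results: Mrps21 had one of the smallest p-values between irradiated and non-irradiated cells, the groups of Mrpl36 did not overlap, Mrpl12 had the smallest p between replicate numbers, and Mrpl3 was higher in every irradiated library than in its pair. Capitals mark the motif found within the 120 bases. The full windows also held 2 ETS matches for Mrps21, 1 for Mrpl36 and 1 for Mrpl12, which do not lie within the bases shown. Mrps21 (chr3:95871515-95871634, minus strand) holds an NRF1 motif from 91 to 82 bases before the start, Mrpl36 (chr13:73330889-73331008, plus strand) a YY1 motif from 31 to 23 bases before it, Mrpl12 (chr11:120484517-120484636, plus strand) an NRF1 motif from 81 to 72 bases before it, and Mrpl3 (chr9:105053148-105053267, plus strand) an ETS motif from 18 to 13 bases before it.
Mrps21: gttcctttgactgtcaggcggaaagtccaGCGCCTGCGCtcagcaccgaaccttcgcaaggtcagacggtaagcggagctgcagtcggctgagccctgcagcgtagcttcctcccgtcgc
Mrpl36: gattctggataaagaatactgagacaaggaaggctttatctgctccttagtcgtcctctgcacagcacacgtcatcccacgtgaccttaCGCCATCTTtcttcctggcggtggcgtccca
Mrpl12: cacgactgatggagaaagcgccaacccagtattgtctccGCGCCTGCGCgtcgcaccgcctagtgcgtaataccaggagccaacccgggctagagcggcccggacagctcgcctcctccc
Mrpl3: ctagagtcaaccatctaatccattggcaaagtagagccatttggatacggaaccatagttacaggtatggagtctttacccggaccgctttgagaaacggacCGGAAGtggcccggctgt

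An NRF1 motif occurred in 18.8% of the 69 promoter windows, in 10.1% of the windows of the 11104 tested genes that have one, and in 4.78% of all 27025 windows. An ETS motif occurred in 55.1% of the ribosomal protein promoters, 30.6% of those of tested genes and 17.2% of all windows. A YY1 motif occurred in 11.6%, 3.05% and 1.49% of the same 3 sets. At least 1 of the 3 motifs was present in 69.6%, 38.4% and 21.0% of them. The median GC content was 58.3% in the ribosomal protein promoters, 61.0% in those of tested genes and 52.7% over all windows. What part base composition has in the motif shares was not tested. A match describes letters in a window and is not a measured binding site.

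All 78 genes were well measured, with 421 to 3960 reads per gene and library, and all passed the filter, a minimum of 10 normalized counts in 3 or more libraries. Divided by the median spliced length of their coding transcripts, their mean levels over the 6 libraries spanned 28.5-fold. Large-subunit genes had a median of 1261 normalized counts per kb (range 177 to 5033), and small-subunit genes a median of 1077 (range 255 to 4173).

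The highest level belonged to Mrpl20, a protein with a bacterial counterpart, at 5033 ± 648 normalized counts per kb (SD, n = 6 libraries). Mrpl17 followed at 4753 ± 456, Mrpl52 at 4728 ± 962 and Mrpl33 at 4501 ± 620, again as normalized counts per kb with the SD over 6 libraries. These 4 levels differed from one to the next by less than those SDs. Mrps21, a small-subunit protein, was the highest of its subunit at 4173 ± 776 per kb. At the low end stood Mrpl1, the protein of the mobile stalk by which transfer RNA leaves the ribosome, at 177 ± 30.3 per kb. Mrps35 was the lowest small-subunit gene at 255 ± 59.2 per kb. The highest genes per kb have short transcripts, from 418 bases for Mrpl52 to 743.5 bases for Mrpl17, whereas the transcripts of Mrpl1 and Mrps35 have median lengths of 3431 and 2246.5 bases, so the length chosen for a gene enters its level.

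**Figure D1:**
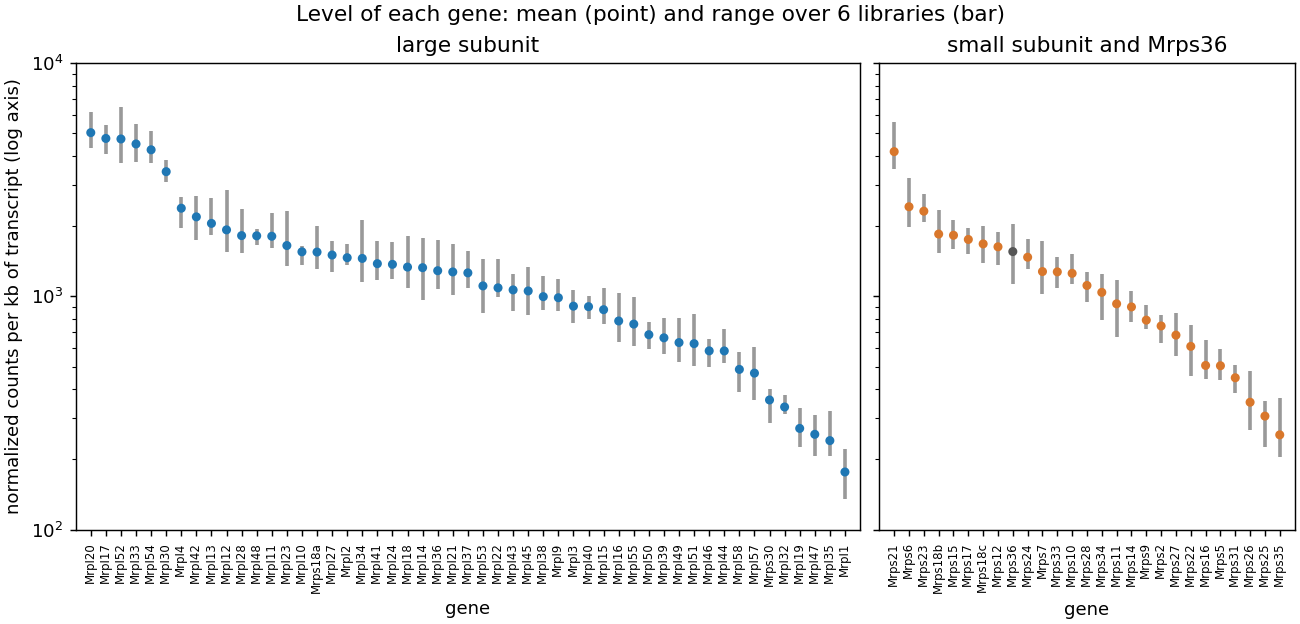
Mean level of each gene in normalized counts per kb of transcript on a log axis, with bars from the lowest to the highest of the 6 libraries. The points fall from 5033 for Mrpl20 to 177 for Mrpl1 in the large subunit and from 4173 for Mrps21 to 255 for Mrps35 in the small subunit.

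Irradiation was compared gene by gene with limma on log2(normalized count + 1), with the replicate number as a block, and a gene was called at a Benjamini-Hochberg adjusted p under 0.05 over all 16141 genes tested. None of the 78 ribosomal protein genes was called, beside 3 called genes in all (0.0186% of genes tested), which were the lower Rps27a, a gene of a cytosolic ribosomal protein, and Rps13-ps1 and Rps13-ps2. At an unadjusted p under 0.05 limma marked 2 of the 78 genes, Mrps35 and Mrps21, against 3.26% of all genes tested. The smallest adjusted p among the 78 was 0.995. The authors' deposited table, made with DESeq2, had 0 of the 78 genes among its 24 genes with an adjusted p under 0.05 (0.159%), and 1 of the 78 at an unadjusted p under 0.05 (2.3% of all genes).

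The log2 fold changes of irradiated over non-irradiated cells had a median of -0.04 over the 78 genes and 0.01 over all genes. They ran from -0.36 for Mrps35 to 0.14 for Mrps25, with 21 genes above 0 (26.9%, against 51.5% of all genes) and 57 below (48.5% of all genes). The large subunit had a median of -0.05 and the small subunit a median of -0.02. Proteins with a bacterial counterpart had medians of -0.06 in the large subunit (30 genes) and -0.03 in the small subunit (16 genes), and proteins specific to mitochondria had -0.04 (21 genes) and -0.02 (10 genes). The sign of the overall median depended on 1 pair of libraries: without the pair of replicate 2 it was 0.04, with 55 of the 78 genes above 0. The medians of the large and small subunit were then 0.04 and 0.05. In the large subunit the genes with a bacterial counterpart were then at 0.02 and the mitochondria-specific ones at 0.05, and in the small subunit these classes were at 0.04 and 0.10.

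The 95% interval of the fold change lay within 1.5-fold in either direction for 72 of the 78 genes. The intervals of Mrps35, Mrps21, Mrpl36, Mrpl23, Mrps34 and Mrpl55 reached below that limit, none reached above it, and the widest bounds were -0.69 and 0.44 on the log2 scale. The median standard error of a fold change was 0.12, against 0.03 from read counting alone, so the spread between libraries set the precision and not the depth.

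**Figure D2:**
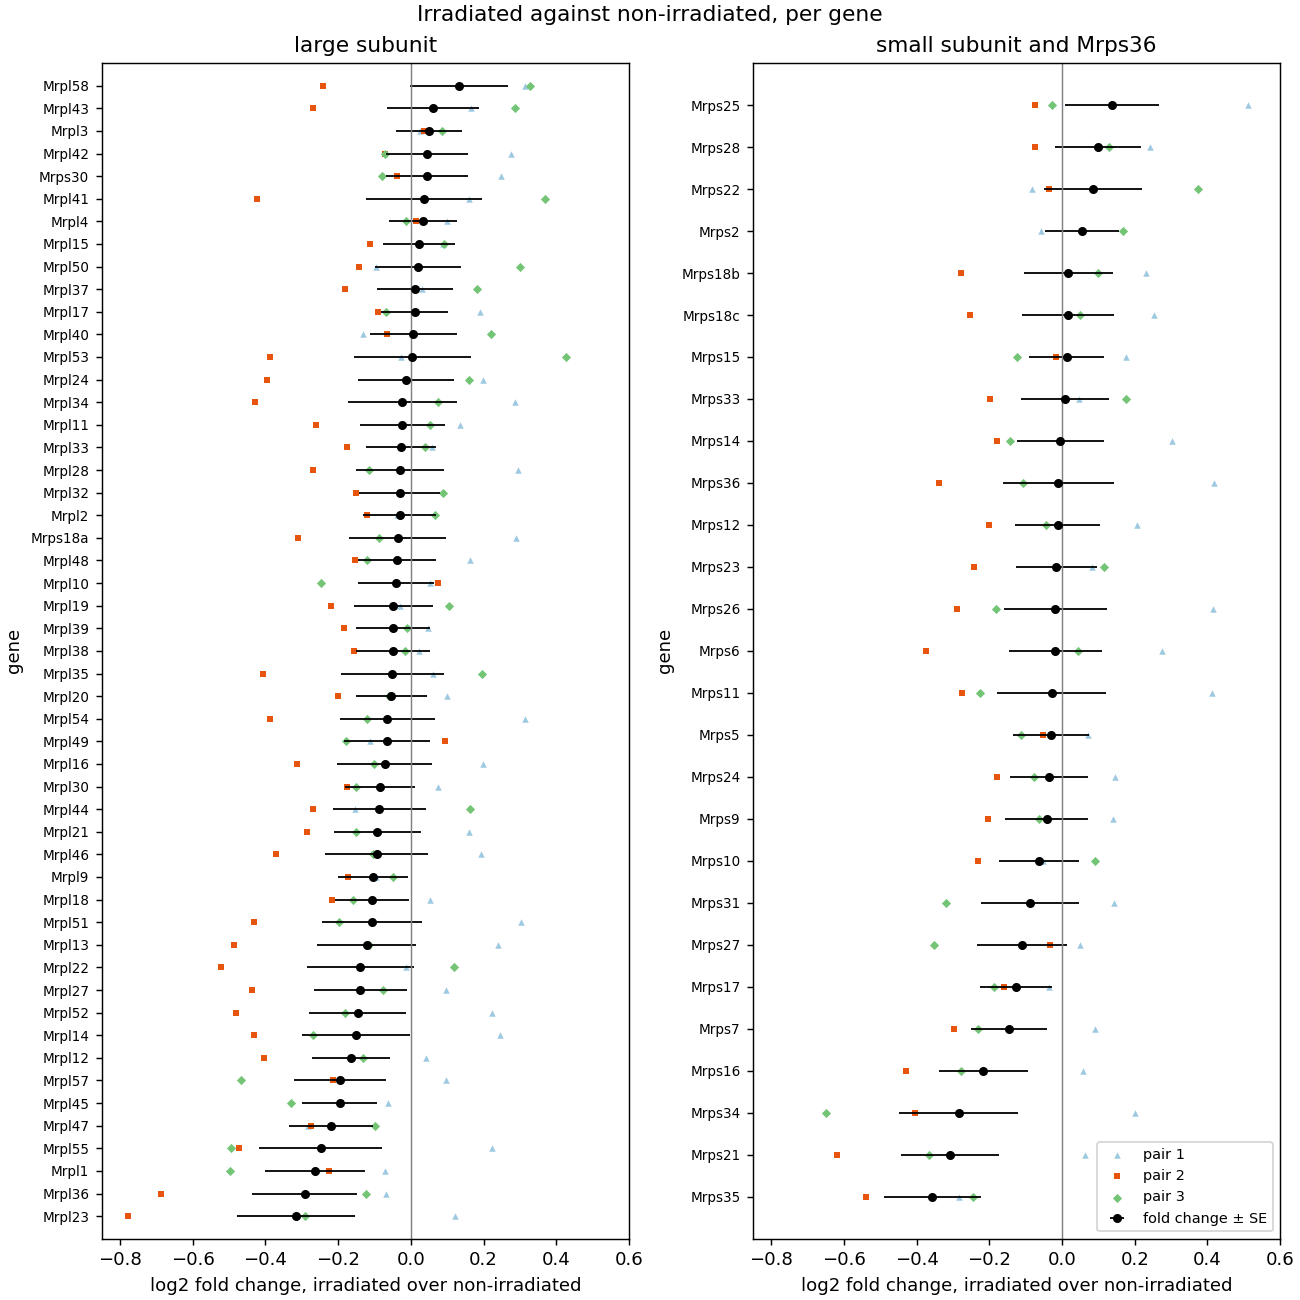
Log2 fold change of irradiated over non-irradiated cells for each gene from limma with the replicate block, with its standard error (black), and the log2 ratio in each pair of libraries (coloured). Values run from -0.36 for Mrps35 to 0.14 for Mrps25, and the ratios of the replicate 2 pair lie left of 0 for 73 of the 78 genes.

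Among small-subunit genes, the lowest fold change was that of Mrps35, a protein specific to mitochondria. It had 561, 826 and 553 normalized counts in non-irradiated replicates 1 to 3 and 460.4, 567 and 467 in the irradiated ones. Each irradiated library was below its pair, but irradiated replicate 2 was above non-irradiated replicates 1 and 3, so the groups overlapped. The means were 647 ± 155 and 498 ± 60.1 (SD, n = 3 each). The log2 fold change was -0.36 ± 0.13 (SE), with an unadjusted p of 0.026 and an adjusted p of 0.995 in limma. Without the pair of replicate 2 it was -0.26.

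Mrps21, a small protein with a bacterial counterpart, had 1543, 2260.35 and 1833 normalized counts without irradiation and 1611, 1470.5 and 1423 with it. Irradiated replicate 1 was above its pair and the other two were below theirs. Its log2 fold change was -0.31 ± 0.13 (SE), with an unadjusted limma p of 0.049 and an adjusted p of 0.995, and it was -0.15 without the pair of replicate 2. Mrps16, another protein of bacterial descent, had a log2 fold change of -0.22 ± 0.12 (-0.11 without the pair of replicate 2). Mrps34, specific to mitochondria, was at -0.28 ± 0.16 (-0.22 without that pair). Exons of Mrps34 overlap those of Nme3 on the same strand and of Mapk8ip3 on the other in GENCODE M21, so its counts are uncertain. The highest small-subunit fold change was that of the mitochondria-specific Mrps25, at 0.14 ± 0.13. It rested on replicate 1, with 1371 normalized counts without irradiation and 1956 with it, and the log2 value was -0.05 without pair 1 and 0.24 without pair 2. Exons of Mrps25 overlap those of Nr2c2 on the opposite strand.

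Among large-subunit genes, Mrpl36 was the only one of all 78 whose irradiated libraries all lay below every non-irradiated library, where 2.65% of all genes tested did so. The opposite order, all irradiated libraries above all others, was seen for 0 of 78 genes (2.08% of all genes tested). It encodes a short zinc-binding protein with a bacterial counterpart. Its normalized counts were 882, 1246 and 938 without irradiation and 841, 774 and 861 with it. The gap between the groups was small, from 882 down to 861, and the log2 ratios in the 3 pairs were -0.07, -0.69 and -0.12. The log2 fold change was -0.29 ± 0.14 (SE), with an adjusted limma p of 0.995, and it was -0.10 without the pair of replicate 2. Its exons overlap those of Ndufs6, a gene of respiratory complex I, on the opposite strand. The strand setting of the counting is not given, so reads from the shared bases may be counted for either gene. The extent of the overlap was not measured.

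Mrpl23, a protein at the mouth of the tunnel through which the new chain leaves, had 1072, 1599.9 and 1148 normalized counts without irradiation and 1167, 932 and 937 with it. Its ratio in the replicate 2 pair, -0.78 on the log2 scale, was the lowest of the 78 genes, while its ratio in pair 1 was 0.12. The log2 fold change was -0.32 ± 0.16 (SE) over the 3 pairs and -0.08 without that pair. Mrpl1, the stalk protein named above, was below its pair in each irradiated library, with 566, 759.9 and 656 normalized counts against 539, 649.6 and 465. Its log2 fold change was -0.26 ± 0.14, and it was -0.28 without the pair of replicate 2.

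Mrpl47 and Mrpl45 stand next to the exit tunnel, and Mrpl45 is known to tie the ribosome to the inner membrane. Mrpl47 had 851, 1041 and 889 normalized counts without irradiation and 699, 860.0 and 830.2 with it, a log2 fold change of -0.22 ± 0.11 (SE). Mrpl45 had 1459, 1946 and 1529.7 against 1397, 1704 and 1216, a log2 fold change of -0.20 ± 0.10. Without the pair of replicate 2, Mrpl47 was at -0.19 and Mrpl45 at -0.20. Both genes were lower in 3 of 3 pairs with overlapping groups, and exons of Mrpl47 overlap those of Actl6a and Ndufb5 on the opposite strand. Mrpl57, Mrpl55 and Mrpl12 completed the 12 genes with the smallest p, at log2 fold changes of -0.19 ± 0.13, -0.25 ± 0.17 and -0.16 ± 0.11. Without the pair of replicate 2 these were -0.19, -0.14 and -0.04. Mrpl55 was among the 2 least counted members, from 464 normalized counts in non-irradiated replicate 1 to 751 in non-irradiated replicate 2.

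Of the 4 most abundant genes per kb, Mrpl20 was at -0.05 ± 0.10, Mrpl17 at 0.01 ± 0.09, Mrpl52 at -0.15 ± 0.13 and Mrpl33 at -0.03 ± 0.10 on the log2 scale (SE). The 95% interval ran from -0.20 to 0.22 for Mrpl17 and from -0.45 to 0.16 for Mrpl52. Without the pair of replicate 2 the 4 values were 0.02, 0.06, 0.02 and 0.05. The highest large-subunit value was that of Mrpl58, the peptidyl-tRNA hydrolase that frees stalled mitochondrial ribosomes, at 0.13 ± 0.14. It had 1101, 1455 and 976 normalized counts without irradiation and 1369, 1229.8 and 1226 with it, so that only the replicate 2 pair had a ratio below 0, and without it the log2 value was 0.32. Exons of Mrpl33 overlap those of Gm43809 on the same strand, and exons of Mrpl58 overlap those of Ict1os on the opposite one. Mrps36, which is not a ribosomal subunit, was at -0.01 ± 0.15.

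Of the 78 genes, 7 were lower in 3 of 3 pairs (11.0% of all genes tested), namely Mrps35, Mrpl36, Mrpl1, Mrpl47, Mrpl45, Mrps17 and Mrpl9. Only 1 of 78 was higher in 3 of 3 pairs (11.8% of all genes tested). That gene, Mrpl3, was chosen for description after its values were seen. It encodes a protein close to the catalytic centre, and had 1779.96, 2391 and 2007 normalized counts without irradiation and 1812, 2451 and 2132 with it. The ratios in the 3 pairs were 0.03, 0.04 and 0.09, and the log2 fold change was 0.05 ± 0.09 (SE). Exons of Mrpl3 overlap those of Gm38077 on the same strand and of Gm47106 on the opposite one.

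The pairs did not move alike. In pair 1 the median log2 ratio of irradiated over non-irradiated was 0.10, with 59 of 78 genes above 0 (47.2% of all genes tested). In pair 2 it was -0.23, with 73 of 78 genes below 0 (47.7% of all genes). In pair 3 it was -0.08, with 50 of 78 below 0 (47.0% of all genes). Over all genes the medians were -0.02, 0.02 and 0.02. In all, 56 of the 78 genes were higher in pair 1 and lower in pair 2, which 27.5% of all genes were. The 5 genes above 0 in pair 2 were Mrpl49, Mrpl3, Mrps2, Mrpl10 and Mrpl4.

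**Figure D3:**
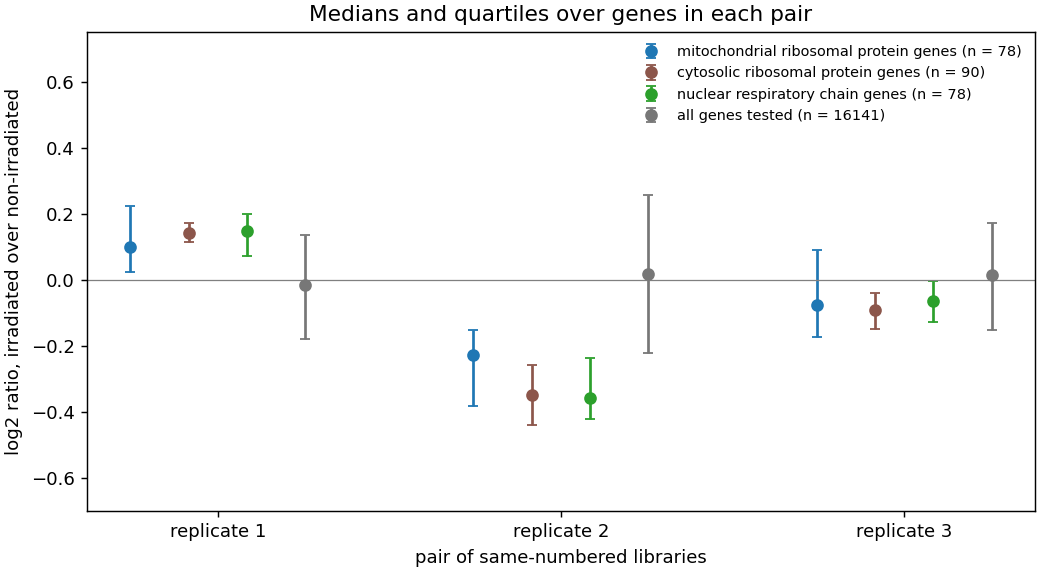
Median and quartiles, over the genes of each group, of the log2 ratio of irradiated over non-irradiated in each pair of same-numbered libraries. The ribosomal protein genes of mitochondria lie at 0.10, -0.23 and -0.08, and those of the cytosol and the respiratory chain genes change sign in the same pairs, while the medians over all genes lie within 0.02 of 0.

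The 2 non-irradiated libraries of pairs 1 and 2 lay on opposite sides of the rest. Non-irradiated replicate 1 was the lowest of the 6 libraries for 33 of the 78 genes, where it was the lowest for 16.8% of all genes tested. Non-irradiated replicate 2 was the highest of the 6 libraries for 71 of the 78 genes, where it was the highest for 23.1% of all genes tested. It lay above the mean of the other 5 libraries for 78 of 78 genes (50.5% of all genes), with a median log2 difference of 0.36, from 0.02 for Mrpl10 to 0.72 for Mrpl12. The median deviation from a gene's own mean over the 6 libraries was -0.17, 0.30 and -0.03 in non-irradiated replicates 1 to 3 and -0.05, 0.08 and -0.08 in the irradiated ones. The genes highest elsewhere were Mrpl49, Mrpl3, Mrpl10 and Mrpl4 in irradiated replicate 2, Mrps2 and Mrpl50 in irradiated replicate 3, and Mrpl46 in non-irradiated replicate 3. These libraries were singled out after their values were seen, so these counts describe them and carry no test.

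**Figure D4:**
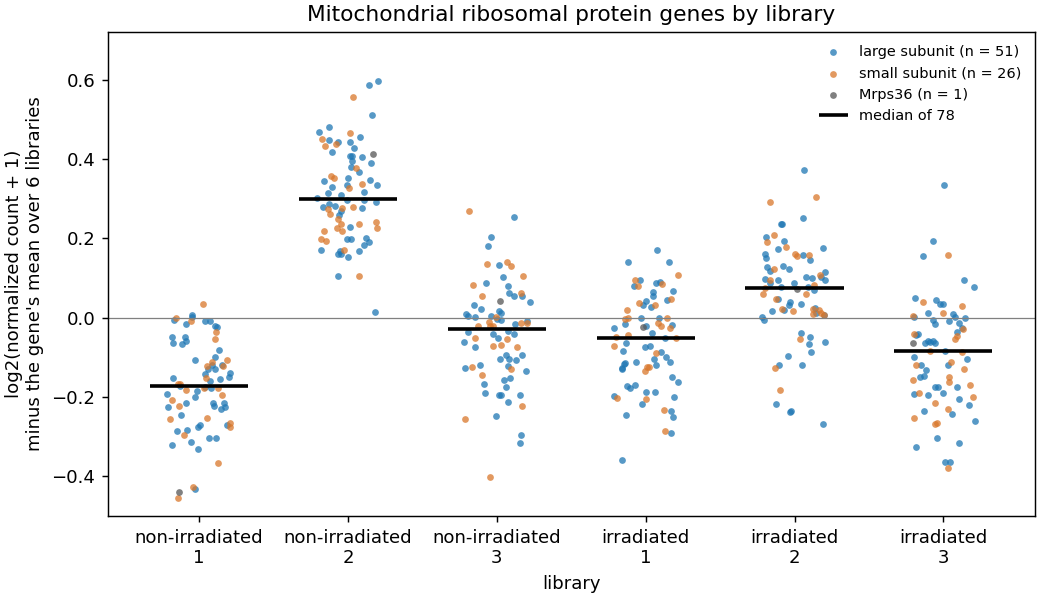
Log2(normalized count + 1) of each gene minus that gene's mean over the 6 libraries, with the median of the 78 genes as a bar. Non-irradiated replicate 2 has a median of 0.30 with every point above 0, and the other 5 medians lie between -0.17 and 0.08.

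In sums, the 78 genes held 95956, 134484 and 105565 normalized counts in non-irradiated replicates 1 to 3, and 104637, 113982 and 101534 in the irradiated ones. As shares of all normalized counts these were 0.189%, 0.279% and 0.212%, then 0.206%, 0.231% and 0.198%. The non-irradiated group thus ranged more widely than the irradiated group, and it held both the lowest and the highest of the 6 sums. The mean log2 ratio of the sums over the pairs was -0.06 ± 0.18 (SD, n = 3 pairs), and without the pair of replicate 2 it was 0.03. The subunits kept in step, and the ratio of the large-subunit to the small-subunit sum was 2.11 to 2.19 in all 6 libraries.

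The widest ranges among single genes were those of Mrpl34, Mrpl14 and Mrpl12. Mrpl34, a short protein of bacterial descent, had 698, 1296 and 726 normalized counts without irradiation and 851, 962 and 764 with it, a range of 0.89 on the log2 scale. Mrpl14, where an anti-association factor binds during assembly, ranged from 622 in non-irradiated replicate 1 to 1152 in non-irradiated replicate 2, also a log2 range of 0.89. Exons of Mrpl14 overlap those of Tmem63b on the opposite strand. For Mrpl34 the log2 fold change of irradiated over non-irradiated was -0.02 ± 0.15 (SE) with the 3 pairs and 0.18 without the pair of replicate 2.

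A test of the replicate number in the same limma fit called 3 of the 78 genes, against 13.4% of all genes tested. Mrpl12, whose protein forms the stalk that recruits translation factors, had 2043, 3745 and 2354 normalized counts without irradiation and 2102, 2828 and 2149 with it. Both libraries of replicate 2 were higher than the other 4, and the adjusted p of the limma F test was 0.023. Mrpl18 (adjusted p = 0.027) and Mrps7 (adjusted p = 0.048), a protein of the small subunit's head, had the same order in limma. Mrpl18 had 1324, 2209.6 and 1557 normalized counts without irradiation and 1374, 1903 and 1396 with it, and Mrps7 had 2008, 3373 and 2574 against 2140.3, 2747 and 2192. Exons of these 3 genes overlap others on the opposite strand, Gm16755 for Mrpl12, Tcp1 for Mrpl18, and Gga3 and Mif4gd for Mrps7. Without non-irradiated replicate 2, 0 of the 78 genes were called in limma between replicate numbers, beside 17.6% of all genes.

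The level in non-irradiated replicate 2 also ran with transcript length over all protein-coding genes. With these genes sorted into 5 length classes of equal size, from the shortest to the longest transcripts, their median log2 difference of that library from the mean of the other 5 was 0.16, 0.10, 0.01, -0.09 and -0.23. The ribosomal protein genes in those classes had medians of 0.36, 0.38, 0.31, 0.41 and 0.36, over 40, 17, 11, 7 and 3 genes. In the shortest class, which holds transcripts of 189 to 1111 bases and most of the family, the members' median was above that of the class. In the other classes the distance was larger. Members were not matched for length within a class. What part length has in the difference was not tested. The library had 47441483 reads, within the range of the others, and fibroblast markers took 3.19% of its counts, close to the lowest share of 3.16%.

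**Figure D5:**
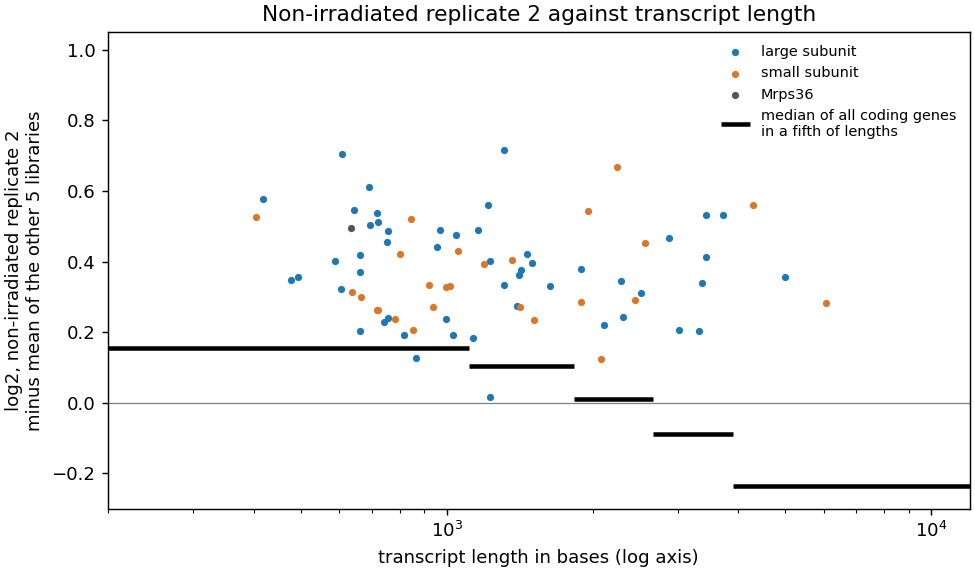
Log2 difference of non-irradiated replicate 2 from the mean of the other 5 libraries for each gene, against transcript length on a log axis. Black bars give the medians of all protein-coding genes in 5 length classes, from 0.16 for the shortest to -0.23 for the longest, and the 78 genes have medians of 0.31 to 0.41 in the same classes.

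Part of the pattern over the libraries was also seen in the genes of other large protein complexes. For the 90 cytosolic ribosomal protein genes, non-irradiated replicate 2 was the highest library in 77, and the median log2 ratios in the 3 pairs were 0.14, -0.35 and -0.09. For the 78 tested nuclear genes of the respiratory chain it was the highest in 69, and the ratios were 0.15, -0.36 and -0.07. The lowest library differed between these groups. Non-irradiated replicate 1 was the lowest for 38 of the respiratory chain genes but for 8 of the cytosolic ones, where irradiated replicate 3 was the lowest for 70. The median fold changes of these groups were -0.10 and -0.09 on the log2 scale, beside -0.04 for the mitochondrial ribosomal protein genes. Without the pair of replicate 2 they were 0.03 and 0.04, beside 0.04. Among the 13 messenger RNAs of the mitochondrial genome, which the ribosome translates, non-irradiated replicate 2 was the highest library for 3, or 23.1%, the same share as over all genes tested. It was the lowest library for 8 of these 13, where it was the lowest for 4078 of all 16141 genes tested. Its median log2 difference from the other 5 libraries was -0.09 for them. For mitochondrial ribosomal protein genes with and without a promoter motif, the medians of this difference were 0.38 (13 genes) and 0.36 (56 genes) for NRF1. They were 0.37 (38 genes) and 0.37 (31 genes) for ETS, and 0.42 (8 genes) and 0.34 (61 genes) for YY1.

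A further 5 subunits of the mitochondrial ribosome have names outside the family: Aurkaip1, Dap3, Chchd1, Ptcd3 and Gadd45gip1. Of these, 0 were called, their median log2 fold change was -0.07, and non-irradiated replicate 2 was the highest library for 4. Dap3, a GTP-binding protein of the small subunit, had 2655, 3255 and 2676 normalized counts without irradiation and 2572, 2783 and 2648 with it, a log2 fold change of -0.10 ± 0.09 (SE). The values of the others were -0.13 ± 0.10 for Aurkaip1, -0.07 ± 0.14 for Chchd1, 0.03 ± 0.10 for Ptcd3 and -0.03 ± 0.12 for Gadd45gip1. The ribosome's own RNAs had log2 fold changes of -0.17 ± 0.12 for mt-Rnr1 and -0.05 ± 0.08 for mt-Rnr2. Both had their highest value in non-irradiated replicate 2, with 8624 and 17621 normalized counts, and without that pair the log2 values were -0.03 and 0.0031. The median of the 5 further subunits was then 0.04.

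Across the other genes of mitochondrial gene expression 0 were called by limma in the irradiation comparison (0.0186% of all genes tested). In the list of translation factors and RNA-binding proteins, 15 of 16 genes were found, with a median log2 fold change of -0.05. Slirp, which protects mitochondrial messenger RNAs, had 1411, 2004 and 1553 normalized counts without irradiation and 1324, 837 and 1177.5 with it. Mtres1, which in human cells acts in the rescue of stalled mitochondrial ribosomes, had 763, 854 and 700.2 against 647, 619 and 469. For both genes all irradiated libraries were below all non-irradiated ones, as for 2.65% of all genes tested, and in the lists that follow this also held for Tefm, Ears2 and the assembly factors Rpusd3 and Ybey. The gap was very small for Ybey, from 203.0 down to 202.3 normalized counts. The log2 fold change was -0.58 ± 0.19 for Slirp and -0.43 ± 0.13 for Mtres1 (SE), with unadjusted limma p of 0.016 and 0.0096, and the adjusted p was 0.995 for each. Without the pair of replicate 2 Slirp was at -0.25 and Mtres1 at -0.41, and the list's median was -0.09.

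The 7 genes of mitochondrial transcription had a median log2 fold change of -0.11, and of -0.04 when Mterf1b was left out by a filter of 50 normalized counts in place of 10. Tefm, the elongation factor of the mitochondrial RNA polymerase, had 435, 477 and 364 normalized counts without irradiation and 318, 355 and 272 with it. Its ratios in the 3 pairs were -0.45, -0.42 and -0.42, with an unadjusted limma p of 0.016 and an adjusted p of 0.995. The termination-family gene Mterf2 was at -0.39 ± 0.20 (SE). Without the pair of replicate 2, Tefm was at -0.43 and Mterf2 at -0.31.

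The 25 assembly factors of the mitochondrial ribosome had a median of -0.08. Rpusd3 at -0.56 ± 0.25 and Mettl17 at -0.22 ± 0.16 had the smallest p of the list. Without the pair of replicate 2, Rpusd3 was at -0.48 and Mettl17 at -0.26. The 17 mitochondrial tRNA synthetases had a median of -0.07. Ears2, the glutamyl enzyme, had 424, 557 and 437 normalized counts against 319, 393 and 367. Its log2 fold change was -0.39 ± 0.14, with an unadjusted limma p of 0.025 and an adjusted p of 0.995. Vars2 was at 0.18 ± 0.12. Without the pair of replicate 2, Ears2 was at -0.33 and Vars2 at 0.21. The 7 proteases had a median of 0.01, with Clpp at -0.18 ± 0.13 (-0.07 without the pair of replicate 2) and Pmpca at 0.06 ± 0.08. The 10 regulators of mitochondrial biogenesis had a median of 0.06, with Myc at 0.15 ± 0.09 and Ppargc1b at -0.48 ± 0.33. The 13 mitochondrial messenger RNAs had a median of 0.02, with mt-Nd3 at -0.17 ± 0.10 and mt-Nd5 at 0.14 ± 0.08 (SE). Without the pair of replicate 2 their median was -0.03, mt-Nd3 was at -0.07 and mt-Nd5 at 0.07.

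Near-identical copies could take reads from members of the family. Pseudogenes in the table under the family's names were Mrpl23-ps1, Mrpl27-ps, Mrpl48-ps, Mrps36-ps1 and Mrps36-ps2. Their mean levels were 0.707% to 3.06% of those of their parent genes. Copies under other names were not searched for. Exons of 33 of the 78 genes overlap another gene in GENCODE M21, 8 on the same strand and 28 on the opposite one, among them Mrpl46 and Mrps11 with each other.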

How the data were processed

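RNA was sequenced from total RNA of 6 libraries, grouped by their titles. Per the submitters' processing notes, the tools were HISAT2 2.2.1, StringTie 2.1.7, FastQC 0.11.9 and Trimmomatic 0.39, and the build was GRCm39. Their order, settings, strand and annotation were not given in the sources used here. Per the file headers, the authors deposited DESeq2 results and, per gene and library, a normalized count, a signal made by dividing counts by a size factor. Per the file headers, each gene's deposited log2 fold change has an error, a p-value and a score, which is the test statistic. Of 20745 rows, 80 repeated an identifier and were dropped. Each library's values were whole multiples of 1 step for 100% of values within 0.001 reads, which gave the reads and the depths printed.

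Genes reaching 10 normalized counts in 3 or more libraries were fitted with limma 3.58.1 (R 4.3.3; lmFit, eBayes with a trend) on log2(normalized count + 1), 2-sided, with the replicate number as a block and Benjamini-Hochberg adjustment over 16141 genes. A pseudocount of 1 understates fold changes of low genes. The block leaves 2 residual degrees of freedom. The numbers come from the titles; same-numbered libraries' deviations from group means correlated at 0.64, 0.47 and 0.57 over 13054 genes, against at most 0.01 for other pairs, and were taken to pair them. A DESeq2 1.42.0 refit on recovered reads with the replicate term came within 0.00086 of every deposited log2 fold change. Recovered reads were also tested with edgeR 4.0.16 and voom. The limma fits were tried on simulated counts with 200 changed genes, with ranges over the settings of gene spread. The changed genes were drawn from all genes tested, and the counts were drawn around the mean of each pair. With the block, 40.7% to 43.8% of 1.5-fold changes and 80.7% to 85.5% of 4-fold changes were called, and 2.67% to 9.35% of calls were false. Without the block, 0% to 0.3% of 1.5-fold and 54.7% to 59.3% of 4-fold changes were called.

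Members, roles and lists were chosen with earlier results of these data known. Genes named are the 12 members of smallest p, the 4 highest per kb, the 2 lowest means, the 2 largest and 2 smallest fold changes, the 3 varying most between replicate numbers, the 3 widest ranges, and in each other list the 2 of smallest p. Others were chosen after their values were seen. Lengths (medians over coding transcripts) and exon overlaps come from GENCODE M21, matched by identifier for 78 of 78 members.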

Additional observations from a re-analysis of the deposited data

How the results depend on the processing

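No ribosomal protein gene was called under any of the 26 other settings of the irradiation comparison, and the smallest adjusted p of the members named in the report was 0.152. With no replicate block 0 members and 0 of all genes were called, and 0 members had an unadjusted p under 0.05, so the pairing changed no call of a member. In simulated counts the fit with no block called at most 0.3% of 1.5-fold changes, so it could miss changes of that size. Those counts covered genes of all levels and had the differences between pairs built in. The share it would call among genes counted as well as the members was not tested. Over all genes the 3 calls became 0 with no filter, without the eBayes trend, with no replicate block, and in edgeR and voom without the block, 24 in DESeq2 with the block and in the authors' deposited table, and 5 in DESeq2 without it. Leaving out pairs or libraries gave 0 to 64. With equal library totals 11 members were above 0 rather than 21, where the share of all genes above 0 was 44.6%, and leaving out pairs or libraries gave 6 to 61, with medians from -0.15 to 0.09. Without non-irradiated replicate 2 and the block the median was 0.09 with 61 above 0. Without pair 1, 16 of the 78 members had an unadjusted limma p under 0.05, beside 1769 of all 16141 genes. Between replicate numbers the 3 members called became 0 with no filter, 0 without the trend, 5 with equal totals and 0 without non-irradiated replicate 2. The log2 fold change of Mrpl17 turned to -0.015 with equal totals, -0.023 with quantile normalization and -0.0069 in edgeR without the block. Leaving out pairs or libraries turned the sign of 11 named genes, with ranges of -0.34 to 0.092 for Mrpl12, -0.41 to 0.039 for Mrpl14, -0.095 to 0.11 for Mrpl17, -0.27 to 0.10 for Mrpl18, -0.17 to 0.082 for Mrpl20, -0.057 to 0.16 for Mrpl3, -0.16 to 0.11 for Mrpl33, -0.18 to 0.26 for Mrpl34, -0.33 to 0.058 for Mrpl52, -0.051 to 0.29 for Mrps25 and -0.33 to 0.044 for Mrps7. The cause was not tested. The fits without the block in other tools, the test without non-irradiated replicate 2, and the sums and comparison groups without its pair were chosen after seeing the data. Depth limits little here, since every member had at least 421 reads in each library; 3 libraries a group limit the precision.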
